A study of Mus musculus with 12 samples.

Results

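The execution side of the p53 response was followed through 10 genes. They comprised the TNF receptor family genes Fas and Eda2r, the BH3-only genes Bbc3 (Puma), Pmaip1 (Noxa) and Bcl2l11 (Bim), the BCL-2 family gene Bok, the apoptosome gene Apaf1, and Aen, Phlda3 and Ei24. A gene entered through the probe sets that carry its symbol in the authors' deposited table of the BaxBak comparison, and each probe set, along with the gene mean, was then read in every sample. This gave 55 probe sets, 40 on exon regions and 15 on exon junctions, of the 719071 tested on the array, and 10 of the 7918 genes that could be named. That table lists 34305 probe sets, all with a step-up adjusted p under 0.05 in the authors' own BaxBak comparison. Values of the 10 genes in that comparison, in its difference from the p53 comparison and between the control groups are therefore given as a description, with no test. Errors and intervals printed with these values take no account of the listing, which favours large differences in the BaxBak comparison. Only in the p53 comparison is a test read for the 10 genes.

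The transcription factor p53 is stabilised by DNA damage and replication stress and switches on genes of cell cycle arrest and of cell death. Its death genes act on both apoptotic routes: receptors of the TNF receptor family at the cell surface, and BH3-only proteins that free or activate Bax and Bak, which open the mitochondrial outer membrane so that Apaf1 can assemble the caspase-activating apoptosome. In the postnatal cerebellum, dividing granule cell precursors are known to die by this route after DNA damage.

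The samples were cerebella of C57BL/6 mice at postnatal day 3, with the meninges removed, in 4 groups of 3. All groups carried Math1-Cre, a recombinase driven in granule cell precursors, which limits deletion of a floxed gene to these cells and their progeny. Purkinje cells, glia, vessels and other cells of the tissue kept their floxed genes. The BaxBak controls were Math1-Cre with Bax-loxP/loxP and Bak--/-, that is, without Bak in any cell. The Atr BaxBak mutants carried the same alleles and Atr-loxP/loxP, where Atr encodes a kinase that answers replication stress. The p53 controls carried Math1-Cre with p53-loxP/loxP, and the Atr p53 mutants carried Atr-loxP/loxP besides. The first pair asks what loss of Atr does where the granule lineage lacks Bax and Bak, and the second what it does where the lineage lacks p53. Samples are numbered 1 to 3 within a group, a name only. Labels do not say whether samples in a group had different litters or animals as their source, so a p-value measures the spread between these samples.

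Each value is a log2 signal. The arrays had medians between 6.46 and 6.49. Their number limits the precision. Negative control probe sets, which match no transcript, averaged 4.11 ± 0.12 (SD, n = 3) in BaxBak controls, 4.43 ± 0.13 in Atr BaxBak mutants, 4.23 ± 0.10 in p53 controls and 4.30 ± 0.18 in Atr p53 mutants. They were thus 0.33 brighter in the Atr BaxBak mutants than in their controls, and 0.06 brighter in the Atr p53 mutants than in theirs. All 3 Atr BaxBak mutants share the label prefix 1836, which no other sample has, so genotype and whatever that prefix marks cannot be told apart. Trp53 itself, over 6 probe sets, stood at 9.07 ± 0.08 in BaxBak controls, 9.74 ± 0.05 in Atr BaxBak mutants, 8.67 ± 0.10 in p53 controls and 8.78 ± 0.01 in Atr p53 mutants (SD, n = 3). Atr, Bax and Bak1 were not analysed here. The tissue is a mixture, and fewer cells of a type cannot be told apart from less RNA per cell.

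In the BaxBak background the TNF receptor family, BH3-only and apoptosome genes were higher in all 3 Atr mutants, and Bok was lower. Fas was 5.22-fold higher, Pmaip1 3.55-fold, Eda2r 3.16-fold, Phlda3 2.32-fold and Bbc3 1.85-fold, while Apaf1 was 1.38-fold higher. The Fas fold starts from BaxBak controls (4.26) close to their negative controls (4.11), and the brightest Pmaip1 probe set differed by 0.91 on the log2 scale. For 9 genes all 3 Atr BaxBak mutants lay above the 9 other samples, and for Bok all 3 lay below them. Such a separation, in either direction, was found for 70.2% of all named genes, which the listing selected in this contrast, so nothing is read from the count. In the p53 background none of the 10 genes differed past the test between Atr mutants and controls, where 2.48% of all named genes did. Differences of the 10 genes lay between -0.18 and 0.22 on the log2 scale.

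**Figure D1:**
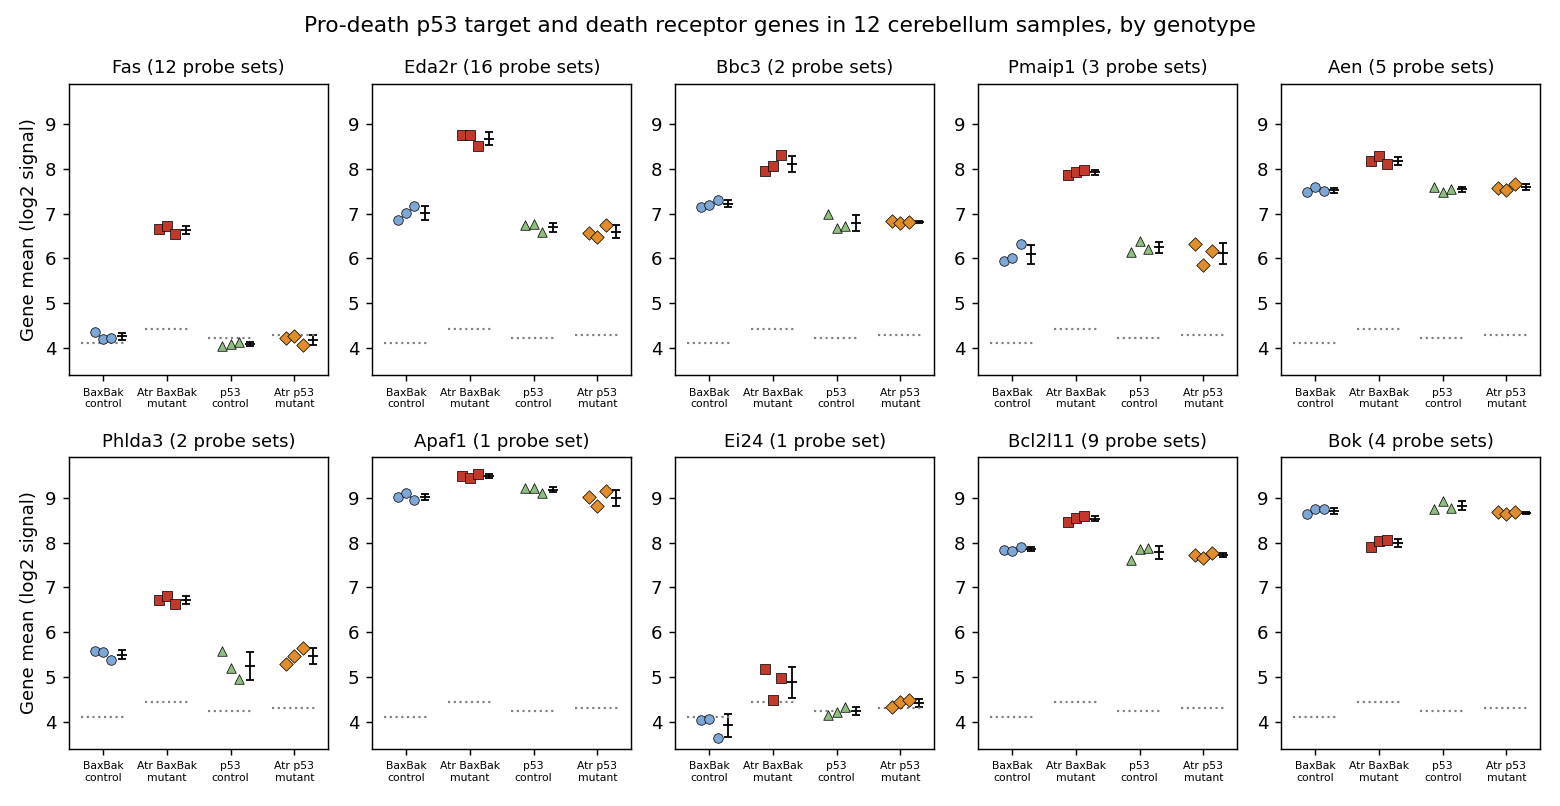
Gene mean (log2 signal, vertical axis) of each of the 10 genes in the 12 samples, by genotype group. Points are samples, the bar beside them is the mean ± SD (n = 3), and the dotted line is the group's mean negative control signal. The Atr BaxBak mutants stand above all other samples for 9 genes and below them for Bok, and the Fas and Ei24 values of the other groups lie close to the dotted lines.

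Promoter sequence was read for 9 of the 10 genes, all but Pmaip1, from RefSeq windows of build GRCm38.p6 that span 250 bases before to 50 bases after an annotated start (13 windows, of 32851 in the table). The p53 response element consensus was searched on both strands, which read alike because the consensus is palindromic. It consists of 2 adjacent decamers with a CNNG core each, here with a spacer of at most 1 base, both cores required and at most 3 mismatches in the other letters. Bbc3 and Aen had such a full site, which 2.82% of all windows and 3.27% of all genes hold. An exact single decamer was present in Aen, within its full site, and in Ei24, against 8.36% of all windows and 9.55% of all genes. No match says only that these letters are not in the window, as for Fas, Eda2r, Phlda3, Apaf1, Bcl2l11 and Bok. For each of the 3 genes with a match, 1 window that holds it is shown in full, 5′ to 3′, so that the motif can be seen in its promoter, with the matched bases in capitals. In Bbc3 (chr7:16309333-16309632, plus strand) the match has 3 mismatches and spans bases -97 to -78 from the start. In Aen (chr7:78895677-78895976, plus strand) it has 3 mismatches and spans bases 11 to 30 after the start. A second annotated start of Aen has its own window (chr7:78895808-78896107), in which the same match begins upstream of the start, at base -121. In Ei24 (chr9:36797285-36797584, minus strand) the exact decamer spans bases -10 to -1.
Bbc3: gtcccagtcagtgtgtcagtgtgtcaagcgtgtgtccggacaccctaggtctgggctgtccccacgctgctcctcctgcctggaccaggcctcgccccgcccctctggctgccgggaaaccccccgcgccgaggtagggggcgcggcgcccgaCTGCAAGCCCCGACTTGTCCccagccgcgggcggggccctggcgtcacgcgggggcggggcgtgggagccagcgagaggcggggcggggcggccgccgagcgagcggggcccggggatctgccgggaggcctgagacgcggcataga
Aen: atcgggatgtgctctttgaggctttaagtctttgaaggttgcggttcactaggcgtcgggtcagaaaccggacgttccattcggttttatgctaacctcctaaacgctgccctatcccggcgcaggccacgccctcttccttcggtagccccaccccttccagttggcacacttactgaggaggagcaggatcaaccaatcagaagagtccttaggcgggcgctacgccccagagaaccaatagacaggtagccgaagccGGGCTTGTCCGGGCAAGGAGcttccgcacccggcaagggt
Ei24: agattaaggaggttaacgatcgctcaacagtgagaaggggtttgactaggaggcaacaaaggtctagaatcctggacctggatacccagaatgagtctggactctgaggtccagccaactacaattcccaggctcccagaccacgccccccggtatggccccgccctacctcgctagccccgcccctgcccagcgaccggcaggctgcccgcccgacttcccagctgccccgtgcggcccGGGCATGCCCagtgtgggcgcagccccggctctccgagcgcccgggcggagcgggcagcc
The 3 genes with a match were higher in Atr BaxBak mutants, and so were 5 of the 6 genes whose windows had none. All were listed for a difference in this contrast, where 59.3% of all named genes stood below 0, so nothing is read from these counts. A match is a description of letters and does not show binding.

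The death receptor gene Fas encodes the cell surface receptor whose ligation assembles FADD and caspase-8. Its gene mean over 12 probe sets was 4.350, 4.203 and 4.223 in BaxBak controls and 6.655, 6.727 and 6.545 in Atr BaxBak mutants. In p53 controls it was 4.041, 4.076 and 4.142, and in Atr p53 mutants 4.217, 4.270 and 4.059. The Atr BaxBak mutants stood alone, and the 9 other samples all lay within the range of the mean negative control signals (3.97 to 4.58). The difference in the BaxBak background was 2.38 ± 0.07 (SE, n = 3 a group, interval 2.23 to 2.54). Probe sets differed by 0.87 to 3.16, with a median of 2.34 over the 8 exon regions and of 2.93 over the 4 junctions. Of the 12 probe sets, 6 had a BaxBak control mean under the negative controls, and 2 exon regions stayed under them in the mutants too. These 2 (PSR1900004439 and PSR1900004446) gave the 1.30 and 0.87 at the low end. The probe set of smallest step-up p among the 55, an exon region of Fas, had a fold of 7.32 in the authors' deposited table. It was the extreme of 55 probe sets listed on this contrast, so its fold is a description. Restricted to probe sets above the negative controls, the Fas difference was 2.66.

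Eda2r, the X-linked receptor gene for the EDA-A2 form of ectodysplasin, was read by 16 probe sets. Its gene mean was 6.86, 7.01 and 7.16 in BaxBak controls and 8.76, 8.76 and 8.51 in Atr BaxBak mutants, a difference of 1.66 ± 0.10 (interval 1.44 to 1.88). The p53 controls had values of 6.74, 6.77 and 6.58, and the Atr p53 mutants 6.57, 6.48 and 6.75. Unlike Fas, Eda2r had signal above the negative controls in every group, on all but 1 junction. Its probe sets moved more evenly than those of Fas, from 1.44 to 2.07, with medians of 1.65 over exon regions and 1.67 over junctions. The p53 control and Atr p53 mutant samples overlapped, and every one of these 6 samples lay below the lowest BaxBak control.

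**Figure D2:**
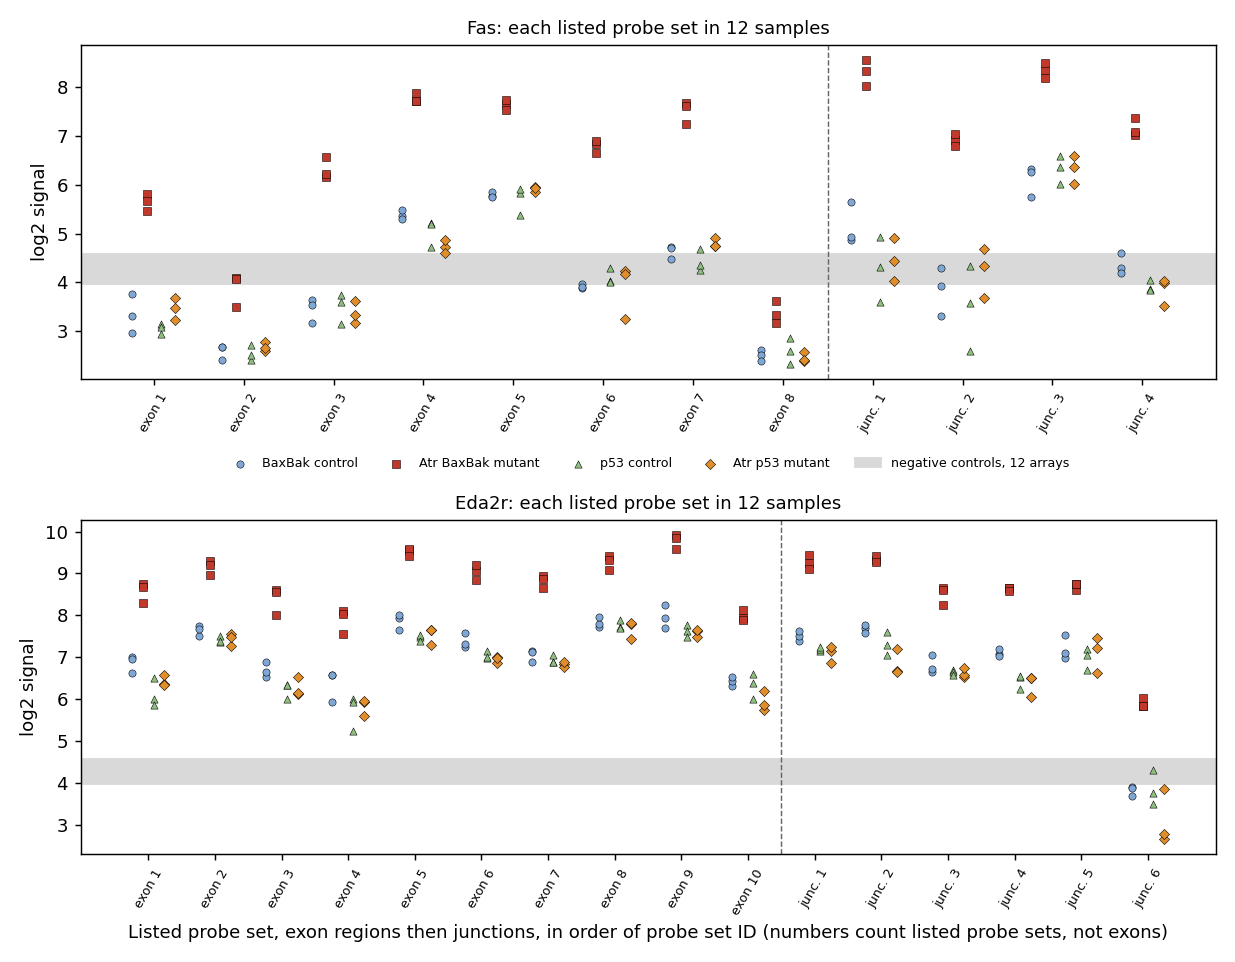
Each listed probe set of Fas (upper panel) and Eda2r (lower panel) in the 12 samples, as log2 signal, with exon regions left of the dashed line and junctions right of it. Points are samples, and the grey band is the range of mean negative control signal over the 12 arrays (3.97 to 4.58). The Atr BaxBak mutants lie above the other samples in all 12 Fas and all 16 Eda2r probe sets, and the exon region numbered 8 of Fas stays under the band in every sample.

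Pmaip1, whose product Noxa binds and neutralises the survival protein Mcl-1, showed the largest difference among the BH3-only genes. Its gene mean over 3 probe sets was 5.94, 6.01 and 6.33 in BaxBak controls and 7.85, 7.93 and 7.97 in Atr BaxBak mutants, a difference of 1.83 ± 0.12 (interval 1.56 to 2.10). Among p53 controls it was 6.15, 6.38 and 6.22, and in Atr p53 mutants 6.32, 5.86 and 6.16. Both p53 groups overlapped the BaxBak controls and each other. The probe sets disagreed in size: the exon regions differed by 1.77 and 2.80, and the single junction, the brightest of the 3, by 0.91. On exon regions alone the gene differed by 2.29.

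Bbc3 encodes Puma, the BH3-only protein that binds all main survival members of the BCL-2 family. Over 2 exon regions it stood at 7.15, 7.20 and 7.30 in BaxBak controls and at 7.95, 8.06 and 8.30 in Atr BaxBak mutants, a difference of 0.89 ± 0.10 (interval 0.67 to 1.10). The p53 controls stood at 6.98, 6.67 and 6.72, and the Atr p53 mutants at 6.84, 6.78 and 6.81. The 3 Atr p53 mutants fell inside the range of their controls. All 6 samples with floxed p53 were below the lowest BaxBak control.

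Bcl2l11 encodes Bim, a BH3-only protein known for neuronal death after loss of trophic support and controlled by FOXO factors as well. Its gene mean over 9 probe sets was 7.84, 7.82 and 7.90 in BaxBak controls and 8.46, 8.54 and 8.59 in Atr BaxBak mutants, a difference of 0.67 ± 0.07 (interval 0.51 to 0.84). The p53 controls were at 7.61, 7.85 and 7.88, and the Atr p53 mutants at 7.73, 7.66 and 7.76. The 9 probe sets differed by 0.50 to 1.03 in the BaxBak background, all in the same direction. In the p53 background they lay between -0.30 and 0.17, on both sides of 0.

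Apaf1, the scaffold of the apoptosome, was read by 1 exon region. It was 9.02, 9.10 and 8.95 in BaxBak controls and 9.49, 9.44 and 9.52 in Atr BaxBak mutants, a difference of 0.46 ± 0.08 (interval 0.28 to 0.64). In p53 controls it was 9.21, 9.22 and 9.11, and in Atr p53 mutants 9.02, 8.81 and 9.16. The last of these mutants lay between its controls, and the other two below them.

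Aen, an exonuclease gene named for apoptosis-enhancing activity and a direct p53 target, was read by 5 probe sets. Its gene mean was 7.48, 7.60 and 7.50 in BaxBak controls and 8.17, 8.28 and 8.10 in Atr BaxBak mutants, a difference of 0.66 ± 0.07 (interval 0.52 to 0.80). With p53 floxed alone it was 7.60, 7.48 and 7.54, and in Atr p53 mutants 7.56, 7.53 and 7.67. The 9 samples other than the Atr BaxBak mutants all lay between 7.48 and 7.67. The probe sets differed by 0.45 to 0.98 in the BaxBak background.

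Phlda3, a p53 target whose pleckstrin homology domain protein competes with the kinase Akt for membrane lipids, was read by 2 exon regions. Its gene mean was 5.57, 5.56 and 5.38 in BaxBak controls and 6.71, 6.81 and 6.63 in Atr BaxBak mutants, a difference of 1.21 ± 0.14 (interval 0.91 to 1.52). The p53 controls were at 5.57, 5.20 and 4.96, and the Atr p53 mutants at 5.29, 5.46 and 5.65. The p53 controls spread more widely (SD 0.31) than any other group of this gene and enclosed 2 of the 3 mutants. The probe sets differed by 0.78 and 1.65.

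Ei24, also known as Pig8, encodes a membrane protein of the endoplasmic reticulum. Its 1 listed probe set is assigned to an Ensembl transcript, and no other probe set of the gene was named. It was 4.05, 4.07 and 3.64 in BaxBak controls, under the negative controls, and 5.17, 4.49 and 4.97 in Atr BaxBak mutants. In p53 controls it was 4.14, 4.21 and 4.33, and in Atr p53 mutants 4.34, 4.43 and 4.49. The Atr BaxBak mutants were at least 1.66-fold higher, a bound that does not correct for the brighter negative control signal on those arrays, and mutant 2 barely exceeded the p53 samples. These values lie at the edge of what the array measured.

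Bok encodes a BCL-2 family protein that resembles Bax and Bak and can permeabilise mitochondria without them. It was the 1 gene of the 10 that went the other way. Its gene mean over 4 probe sets was 8.63, 8.74 and 8.75 in BaxBak controls and 7.89, 8.03 and 8.05 in Atr BaxBak mutants, so it was 1.64-fold lower (difference -0.72 ± 0.07, interval -0.86 to -0.57). Among p53 controls it was 8.74, 8.93 and 8.78, and in Atr p53 mutants 8.69, 8.64 and 8.67. Both exon regions (-0.92 and -0.67) and both junctions (-0.75 and -0.52) were lower in the BaxBak background. All 3 Atr p53 mutants lay below all 3 p53 controls, and the p53 groups did not overlap for 27.0% of all named genes. Bok did not pass the test there.

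Over the 55 probe sets, 51 were higher and 4, those of Bok, were lower in Atr BaxBak mutants, and in all 55 the BaxBak groups did not overlap. Groups did not overlap in 31.6% of all probe sets. The 55 were also past limma's threshold in this contrast, as were 5.24% of all probe sets. With each array's negative control signal as a covariate, 20 of the 55, none from Bok, were past it, against 759 of all 719071. Between 39 and 46 of the 55 were past it with 1 sample of the BaxBak groups left out, against 7554 to 15943 of all probe sets. As the listing used this contrast, nothing is read from these counts. The members closest to the listing threshold were an exon region of Bcl2l11 (step-up p = 0.0466, fold 1.65), an exon region of Aen (0.0464, fold 1.62) and the Pmaip1 junction (0.0438, fold 1.87), all as given in the authors' deposited table. Probe sets beyond the threshold were not named and not analysed here.

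In the p53 background the question was whether the same genes differ with Atr loss when the lineage lacks p53. None of the 10 genes passed limma's test (Benjamini-Hochberg adjustment over 7918 named genes), where 2.48% of named genes (196) did. Of the 10 genes, 2 had an unadjusted p under 0.05, against 25.5% of the named genes. The count of 196 hung on single samples, falling to 36 without p53 control 3 and rising to 711 without Atr p53 mutant 3, but none of the 10 genes was called with any single sample left out. The spread in this fit was shared with the samples that selected the names. None of the 55 probe sets passed over the array, where 0.00445% did, and 7 of the 55 had an unadjusted p under 0.05 against 7.76% of all probe sets. In the authors' deposited table of this comparison, 0 of the 55 had a step-up p under 0.05, where 2 of all 34305 listed probe sets did. The smallest step-up p among the 55 was 0.643. Of the 55, 5 had an unadjusted p under 0.05 there, and the share over all listed probe sets was not counted. Nothing is read from these counts.

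The 95% intervals of the p53 comparison show how large a difference in signal could have gone unseen. With Fas and Ei24, read at the level of the negative controls, the intervals do not bound a change in RNA. For Fas the difference was 0.10 ± 0.07 (interval -0.06 to 0.25, limma adjusted p = 0.429), with both groups under their negative controls, so no fold is given. For Eda2r it was -0.10 ± 0.10 (interval -0.32 to 0.12, limma adjusted p = 0.574). The BH3-only genes gave 0.02 ± 0.10 for Bbc3 (interval -0.20 to 0.24), -0.14 ± 0.12 for Pmaip1 (interval -0.41 to 0.13) and -0.06 ± 0.07 for Bcl2l11 (interval -0.22 to 0.10). The limma adjusted p was 0.924 for Bbc3, 0.512 for Pmaip1 and 0.644 for Bcl2l11. For Phlda3 the difference was 0.22 ± 0.14 (interval -0.08 to 0.52, limma adjusted p = 0.334), the widest interval after that of Ei24. Aen was at 0.04 ± 0.07 (interval -0.10 to 0.19, limma adjusted p = 0.709). Of the 3 p53 controls, 2 carry the label prefix 1845, which no Atr p53 mutant has. Within prefix 1843, which holds the 3 mutants and 1 control, the direction was the opposite for Phlda3 (-0.11), Bbc3 (-0.17), Bcl2l11 (0.11) and Aen (-0.02), with no test.

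The genes that came nearest to the threshold in the p53 comparison were Bok and Apaf1. Bok was at -0.15 ± 0.07 (interval -0.30 to -0.01, unadjusted p = 0.0416, limma adjusted p = 0.18), and Apaf1 at -0.18 ± 0.08 (unadjusted p = 0.0492, limma adjusted p = 0.195). The p53 groups did not overlap for Bok and for Ei24, 2 of the 10 genes, where 27.0% of the named genes showed the same. Ei24, read at the level of the negative controls, stood at 0.20 ± 0.16 (interval -0.15 to 0.54, limma adjusted p = 0.456). The 55 probe sets lay between -0.76 and 0.73 with a median of -0.03, 25 above 0 and 30 below. The extremes were junctions of Eda2r (-0.76) and Fas (0.73) whose means lay under those of the negative controls. The median of the 10 genes was -0.02, against -0.03 for all named genes.

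**Figure D3:**
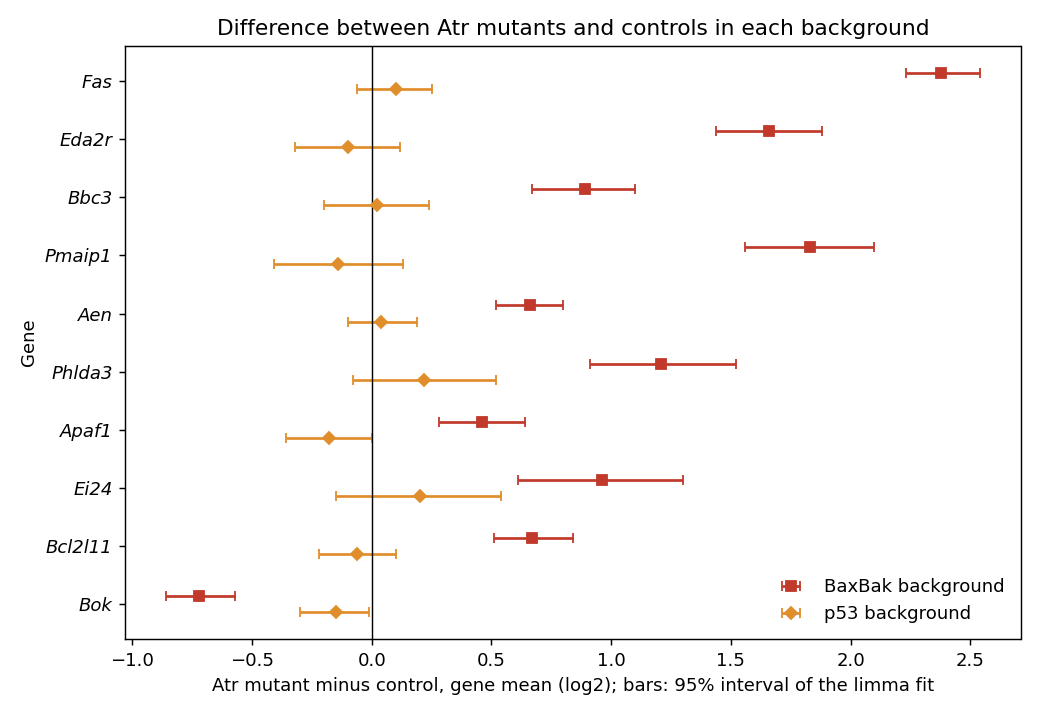
Difference between Atr mutants and controls (log2, horizontal axis) of each gene mean in the BaxBak background (squares) and in the p53 background (diamonds), with bars for the 95% interval of the limma fit. The squares of 9 genes lie right of 0 and that of Bok lies left, at -0.72, while the diamonds lie between -0.18 and 0.22.

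**Figure D4:**
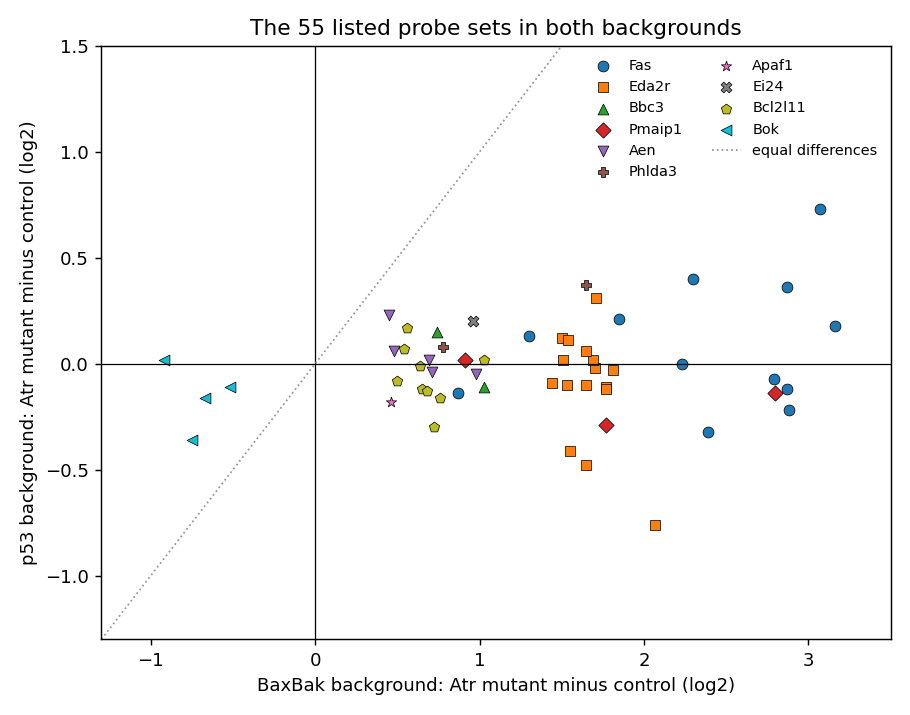
The 55 listed probe sets, with the difference between Atr mutants and controls in the BaxBak background on the horizontal axis and in the p53 background on the vertical axis (both log2). Each symbol is 1 probe set, the dotted line marks equal differences, and the cloud lies around 0 vertically (median -0.03) and away from 0 horizontally, where the listing selected it.

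The controls of the p53 background were compared with those of the BaxBak background to see where the genes stood without Atr loss. The comparison shares its BaxBak controls with the listing, and no label prefix is found in both groups, so genotype and prefix cannot be told apart. Bbc3 was 0.43 lower in p53 controls (difference -0.43 ± 0.10) and Eda2r 0.32 lower (-0.32 ± 0.10). Fas averaged 4.26 in BaxBak controls (negative controls 4.11) and 4.09 in p53 controls (negative controls 4.23). Both lay at the level of the negative controls, so no fold is given. For these 3 genes, Apaf1 and Ei24 the control groups did not overlap, as for 41.3% of all named genes. All but 1 of the 16 Eda2r probe sets were lower, both Bbc3 probe sets were, and 8 of the 12 Fas probe sets were. Phlda3 (-0.25 ± 0.14) and Bcl2l11 (-0.08 ± 0.07) were lower on average with overlapping groups. Apaf1 (0.16 ± 0.08) was higher. Ei24 (0.31) was higher as well, with both groups under the negative controls. For Pmaip1 (0.16), Bok (0.11) and Aen (0.02) the groups overlapped. On its brightest probe set alone, Fas was 0.21 higher in p53 controls, and Bcl2l11 0.14 higher. In Bbc3 and Eda2r the 4 groups fell into an order, with Atr BaxBak mutants highest, BaxBak controls next, and the p53 groups lowest and overlapping.

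Neighbouring genes of the pathway were read the same way, through listed probe sets only, so BaxBak values are again a description. None of them passed in the p53 comparison in any of 6 lists, in either direction, where 2.48% of all named genes did. Among 14 feedback and arrest targets, 10 were named, 9 above 0 and 1 below in the BaxBak background (median 0.76, and -0.07 in the p53 background). The cell cycle inhibitor gene Cdkn1a stood at 1.48 in the BaxBak background and 0.03 in the p53 background, and the autophagy and death regulator Trp53inp1 at 1.44 and -0.20. Among 12 metabolic and repair targets 7 were named, 4 above 0 and 3 below (median 0.40, and -0.08). The sestrin gene Sesn2, a stress-induced brake on mTORC1, stood at 1.16 and 0.18, and the translesion polymerase gene Polk at 0.96 and -0.04.

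Of 14 other pro-death p53 targets 5 were named, 3 above 0 and 2 below (median 0.65, and -0.09). Tnfrsf10b, the mouse receptor for the death ligand TRAIL, went with Fas and Eda2r. It stood at 6.33 in BaxBak controls, 7.92 in Atr BaxBak mutants, 6.31 in p53 controls and 6.00 in Atr p53 mutants, a difference of 1.59 ± 0.13 in the BaxBak background and of -0.32 ± 0.13 in the p53 background (limma adjusted p = 0.153). Pidd1, whose product activates caspase-2 in the PIDDosome, stood at 1.18 and -0.09.

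Genes of the machinery beneath the receptors and at the mitochondria were set against all named genes, of which 59.3% stood below 0 in the BaxBak background. Of 20 death receptor signalling genes 5 were named, 1 above 0 and 4 below (median -0.48, and -0.13 in the p53 background). The adaptor gene Traf2 stood at -0.53 and -0.31 (limma adjusted p = 0.0542 in the p53 background) and Daxx, named for binding the Fas death domain, at -0.48 and -0.13. Of 18 BCL-2 family genes 5 were named, all 5 below 0 (median -0.45, and -0.23), with Bcl2l13 at -0.61 and -0.28 and Bid, the link from caspase-8 to mitochondria, at -0.45 and -0.10. Of 19 caspase and apoptosome genes 5 were named, 2 above 0 and 3 below (median -0.23, and -0.11), with Casp2, whose product the PIDDosome activates, at -0.23 and -0.11. All named genes together had a median of -0.34 in the BaxBak background and of -0.03 in the p53 background. Bid counts in 2 lists.

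**Figure D5:**
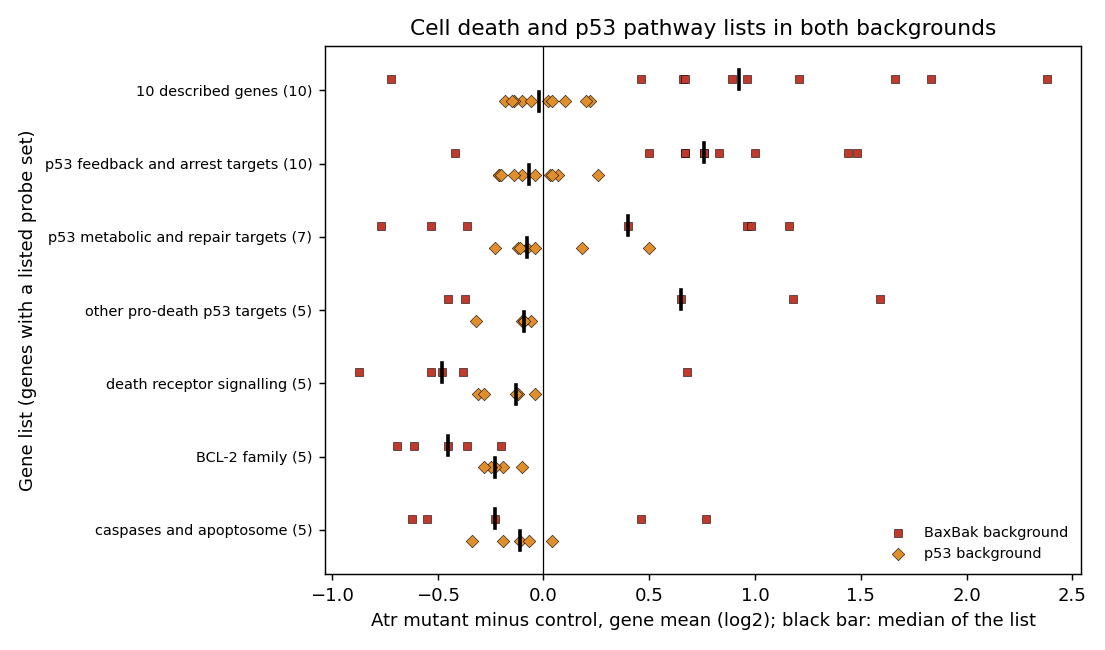
Difference between Atr mutants and controls (log2, horizontal axis) of each gene with a listed probe set, for the 10 genes and 6 neighbouring lists. Squares stand for the BaxBak background, diamonds for the p53 background and black bars for list medians, which lie at 0.92 and -0.02 for the 10 genes and at -0.45 and -0.23 for the BCL-2 family.

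Across the 12 samples the gene means of the other members followed Fas to different degrees, with Pearson r of 0.975 for Eda2r, 0.969 for Pmaip1, 0.966 for Aen and 0.965 for Bcl2l11. Lower values were found for Phlda3 (0.951), Bbc3 (0.934), Apaf1 (0.821) and Ei24 (0.739), and Bok had -0.975. These are descriptions over 12 samples in which 3 stand apart and set the coefficient. Of 2965 named genes with at least 3 probe sets, the non-members most like Fas were Stox2 (r = 0.997), Cdc42bpg (0.995), 9230114K14Rik (0.993), Alox5 (0.993) and Sytl1 (0.991). Alox5, which encodes the enzyme that begins leukotriene synthesis, stood at 5.14 in BaxBak controls, 7.46 in Atr BaxBak mutants, 5.05 in p53 controls and 4.90 in Atr p53 mutants. Stox2, a winged helix gene, stood at 7.01, 8.61, 6.95 and 7.04 in the same order. None of the 5 passed in the p53 comparison (limma adjusted p from 0.193 to 0.886).

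Cell type markers and array background moved in the same samples as the 10 genes. Markers too were read through listed probe sets only, so their BaxBak values are a description. The Atr BaxBak mutants did not overlap the 9 other samples for 70.2% of all named genes, so nothing is read from separated ranges. Of 12 granule cell precursor markers 10 were named, 9 below 0 in the BaxBak background and 1, Gli1 (0.31), above. Their mean level lay between 9.66 and 9.75 in BaxBak controls and between 9.10 and 9.19 in Atr BaxBak mutants. In p53 controls it lay between 9.51 and 9.71 and in Atr p53 mutants between 9.15 and 9.45, where Sfrp1 alone passed, lower. The Purkinje cell list (5 of 8 named) ran from 8.70 to 8.95 in BaxBak controls and from 9.65 to 9.76 in Atr BaxBak mutants, and the astrocyte and Bergmann glia list (7 of 11) from 8.60 to 8.79 and from 9.54 to 9.63. GABAergic interneuron markers (5 of 8) ran from 8.97 to 9.10 and from 9.62 to 9.79. Oligodendrocyte lineage markers (7 of 9) ran from 7.31 to 7.52 and from 7.95 to 8.29. Of the oligodendrocyte markers 6 were above 0 in the BaxBak background, and Pdgfra was below (-0.72). Every named gene of the Purkinje, astrocyte and GABAergic lists was above 0 there. Postmitotic granule neuron markers (5 of 10) overlapped in their mean level, from 8.98 to 9.13 and from 8.91 to 9.03, while single genes went both ways, 2 above 0 and 3 below (median difference -0.54).

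Markers of blood, immune and vessel cells were read in the same way, again as a description in the BaxBak background. Microglia and macrophage markers (6 of 13 named) ran from 8.09 to 8.31 in BaxBak controls and from 8.48 to 8.67 in Atr BaxBak mutants. In p53 controls and Atr p53 mutants they ran from 8.32 to 8.47 and from 8.31 to 8.45. In the BaxBak background 5 of these markers were above 0, and Mrc1 was below (-0.63). Of 10 T and B lymphocyte markers only Cd4 was named. It averaged 4.70 in BaxBak controls and 3.37 in Atr BaxBak mutants, and 4.18 and 3.35 in p53 controls and Atr p53 mutants, under the negative controls in every group but the first. The endothelial cell and pericyte list (2 of 10, Vwf and Pdgfrb) ran from 6.35 to 6.58 and from 7.25 to 7.51. The erythroid list (1 of 6) ran from 4.17 to 4.29 and from 4.69 to 4.76. The meningeal list (2 of 6) ran from 6.39 to 6.73 and from 6.50 to 6.56, a mean of opposite differences in Col1a1 (-0.98) and Bgn (0.95), the latter under the negative controls in BaxBak controls. The part of these cell types in the values of the 10 genes was not tested. With each array's negative control signal as a covariate, the BaxBak differences were 2.24 for Fas, 1.73 for Eda2r, 1.96 for Pmaip1, 1.06 for Bbc3 and -0.66 for Bok.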

How the data were processed

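Whole-transcript arrays were hybridised with 500 ng of total RNA from each of 12 cerebellum samples, per the labels' protocols, and a label calls the samples poly-A selected. The authors deposited log2 signals per probe set. The submitters' processing notes name Partek, with no version. Background correction, summarisation, normalization and array build: not given in the sources used here. The authors' deposited tables also hold, for 34305 probe sets, fold changes and p-values with step-up adjusted p-values. These folds equalled differences of group means to within 9.27e-05 on the log2 scale.

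Tests had been planned on per-gene values, and the unit found led to fits per probe set (719071, after 61 with no value and the controls were left out) and per gene. A gene is the mean of its listed probe sets, 30939 in 7918 genes, after leaving out 689 with several symbols. Fits were made with R 4.3.3 and its package limma, version 3.58.1 (functions lmFit, then eBayes, two-sided, 1 mean per group over 12 samples, 8 residual degrees of freedom), with Benjamini-Hochberg adjustment and a threshold of 0.05, and were tested on simulated data. Errors after ± are standard errors unless marked SD, and intervals are 95% intervals of the fit. Negative control probe sets (5222) set the background, and a group mean under theirs gives a bound or no fold. Alternatives changed scaling, dim probe set filter, samples, variance prior, negative control covariate, label prefix block and gene summary.

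All 10 genes are named. Of each neighbouring list, the text names the 2 genes of largest BaxBak difference with at least 3 probe sets, and of genes like Fas the 5 of highest r. A gene that this rule also gives is not reported here. The 10 genes, the lists and the rules were chosen with earlier results of these data known. Symbols matched RefSeq (GRCm38.p6) for 7188 of 7918 genes.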

Additional observations from a re-analysis of the deposited data

Results flagged for a closer look

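The Atr effect of the 10 genes in the BaxBak background was set against that in the p53 background. The genes were listed for their difference in the BaxBak samples, which enter this contrast, so the values are a description and no test is given. On the log2 scale the effect in the BaxBak background minus that in the p53 background was 2.29 ± 0.10 for Fas, 1.76 ± 0.14 for Eda2r and 1.96 ± 0.17 for Pmaip1. It was 0.74 ± 0.10 for Bcl2l11, 0.62 ± 0.09 for Aen, 0.87 ± 0.14 for Bbc3 and 0.64 ± 0.11 for Apaf1. For Phlda3 it was 0.99 ± 0.19 and for Ei24, read near background, 0.76 ± 0.22. Bok gave -0.56 ± 0.09. In the p53 background its groups did not overlap, as for 27.0% of all named genes, and it did not pass (limma adjusted p = 0.18). Its difference there was -0.15, with -0.24 on junctions and -0.07 on exon regions. Within label prefix 1843 (3 mutants, 1 control) it was -0.07.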

How the results depend on the processing

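In the p53 comparison none of the 226 recomputed gene tests was called, and the smallest adjusted p was 0.055 (limma). Signs near 0 turned for Aen on its brightest probe set and on junctions (-0.04 each) and within label prefix 1843 (-0.02). They turned for Bbc3 without a p53 control (range with 1 sample left out -0.04 to 0.12, and -0.02 without p53 control 3) and within the prefix (-0.17), for Bcl2l11 on its brightest probe set (0.17) and within the prefix (0.11), for Phlda3 within the prefix (-0.11), and for Pmaip1 on its brightest probe set and on junctions (0.02 each). That prefix holds 3 mutants and 1 control, with no test. Between control groups, signs turned for Aen (-0.01 without a sample, -0.03 by the median of probe sets), Bcl2l11 (-0.13 to 0.01 with 1 sample left out, 0.14 on the brightest probe set) and Fas (0.21 on the brightest probe set). The listing selected the genes on the BaxBak comparison, and the difference between backgrounds shares those samples, so nothing is read from the alternatives of either.

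Counts over the array moved more. The 32 probe sets of the p53 comparison became 0 with only its 6 samples (38509 with an unadjusted p under 0.05, limma) and 20 to 54 with 1 sample left out. Its 196 named genes became 125 above the negative controls, 64 with only 6 samples, 109 on exon regions and 125 on junctions. They ranged from 36 to 711 with 1 sample left out (38 lacking p53 control 2, 46 and 79 lacking Atr p53 mutants 2 and 1, 121 and 124 lacking Atr BaxBak mutants 2 and 1). The 37680 probe sets of the BaxBak comparison became 59417 with an intensity trend, 759 with the negative control covariate and 7554 to 52581 with 1 sample left out (15943 or fewer where the sample was one of its own). The covariate left 20 of the 55 probe sets called. On junctions 6 genes had a value for the difference between backgrounds. The causes were not tested. No paired analysis was possible because the labels give the groups no replicate numbers in common. A random block for the label prefix found a correlation of 0.00702. Only the control groups hold different prefixes within a group, so this value cannot tell a prefix effect from a genotype effect. Fas and Ei24 were limited by signal near the negative controls.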
